A study of Mus musculus with 6 samples.

Results

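Bone morphogenetic proteins (BMPs) are secreted ligands of the TGF-beta superfamily, and their antagonists are secreted proteins that bind the ligands and keep them from their receptors. The genes described here were 6 ligands (Bmp2, Bmp4, Bmp5, Bmp6, Bmp7 and Gdf10) and 4 antagonists (Nog, Chrd, Grem1 and Chrdl1), chosen by symbol. All 10 were found among the 24346 genes of the deposited tables. RNA was sequenced from mandibular condylar cartilage, the growth cartilage of the jaw joint, in 3 mutant and 3 control libraries of mice. In mutants the hedgehog ligand gene Ihh was deleted in craniofacial neural crest cells, and the controls were labelled fl/fl, the usual notation for a floxed gene. The sources used here give neither the Cre driver nor the age of the mice, nor whether each library came from its own animal, so p-values measure the spread between these libraries, which may be partly technical.

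BMP ligands bind pairs of type I and type II receptor kinases, which phosphorylate Smad1, Smad5 and Smad9. These join Smad4 in the nucleus and induce targets such as the Id genes. In cartilage, BMP signals are known to drive the condensation, proliferation and maturation of chondrocytes, and in the growth plate they act beside Ihh.

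Levels are given as FPKM, which divides fragments by the length of the transcript and the depth of the library, so that levels of different genes can be set side by side. Ihh measured 2.18, 2.33 and 2.66 FPKM in mutants 1, 2 and 3, against 3.73, 2.51 and 3.74 FPKM in controls 1, 2 and 3, and its difference did not pass the test. The hedgehog target Gli1 fell to 0.516 ± 0.323 FPKM in mutants, against 8.70 ± 1.39 FPKM in controls (mean ± SD, n = 3 per group; limma adjusted p = 0.0152). The 8 chondrocyte markers were present in all libraries, with sums of 120 to 180 FPKM in mutants and 293 to 408 FPKM in controls. The sum of 10 skeletal muscle markers was 13600 to 25200 FPKM in mutants and 3130 to 7500 FPKM in controls, and that of 8 endothelial markers was 213 to 249 FPKM in mutants and 75.8 to 126 FPKM in controls. In bulk tissue, fewer cells of a type and less RNA per cell cannot be told apart. The X-inactivation transcript Xist was high in controls 1 and 2 (29.5 and 29.2 FPKM) and low in the 3 mutants and control 3 (0.577 to 0.984 FPKM), so the sexes were unequal between the groups. Olfactory receptor genes, taken as silent in this tissue, had a 90th percentile of 6.87 to 8.58 FPKM in mutants and 6.49 to 8.45 FPKM in controls.

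None of the 9 tested members passed the test between mutant and control cartilage (limma, Benjamini-Hochberg adjusted p below 0.05), where 1.24% of all 18715 tested genes passed. Genes were tested when they reached 1 FPKM in at least 3 libraries, and Grem1 did not. At an unadjusted p below 0.05 there was 1 member, Bmp7, against 14.1% of all genes tested. The median log2 fold change, mutant minus control on log2(FPKM + 1), was -0.19 over the 9 members and 0 over all genes tested, with 4 members positive and 5 negative. Bmp7 was also the only tested member whose groups did not overlap, where 19.2% of all genes tested had groups apart, with 9.4% lower in mutants. Bmp4 and Gdf10 were the most abundant members in both groups and exceeded at least 95.4% of the olfactory receptor genes in every library. Bmp2, Bmp5, Bmp6, Chrd and Chrdl1 exceeded 67% to 92.6% of those genes, depending on gene and library, and Grem1 0% to 88%. The values of these members thus lay partly within the range of genes taken as silent.

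**Figure D1:**
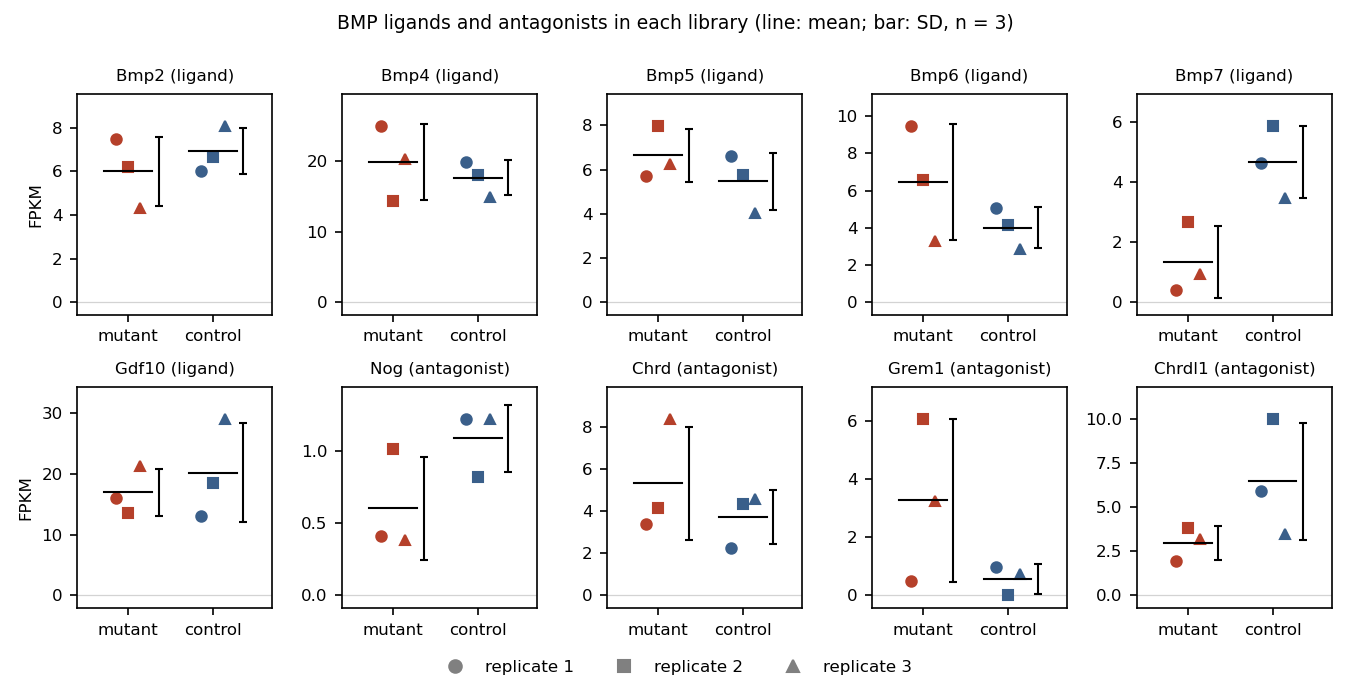
FPKM (y axis) of each of the 10 genes in the 3 mutant and 3 control libraries, one panel per gene with its own scale; symbols give the replicate number, lines the group mean and bars the SD. Mutant and control points overlap in every panel except Bmp7, where the highest mutant value is 2.68 FPKM and the lowest control value 3.47 FPKM.

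Bmp7, a ligand of skeletal, kidney and eye development, measured 0.403, 2.68 and 0.953 FPKM in mutants 1, 2 and 3, against 4.62, 5.87 and 3.47 FPKM in controls 1, 2 and 3. All mutant values lay below all control values, and mutant 2 was the mutant closest to the controls. The log2 fold change was -1.37 ± 0.41 (SE), with a 95% interval from -2.31 to -0.43 and a limma adjusted p of 0.166. The spacing of the values corresponded to 2, 16 and 5 fragments in mutants and 23, 29 and 23 in controls, taking the smallest whole numbers in proportion to the 6 values, so that the true numbers may be multiples of these. The scaled ratio of mutant to control fragments was 0.313, with an exact 95% interval from 0.187 to 0.506 that covers counting error only and not the spread between libraries. Of the 23 mutant fragments 16 came from mutant 2, and without that library the log2 fold change was -1.75 (adjusted p = 0.126). Over the settings that tested Bmp7 its adjusted p lay between 0.126 and 0.858. It missed the filter at 5 FPKM and, without controls 1 and 2, the main filter, so it was not tested there. With Xist as a covariate the log2 fold change was -1.11, with a 95% interval from -2.485 to 0.26 (limma adjusted p = 0.591). Bmp7 exceeded 43.6% to 84.9% of the olfactory receptor genes, depending on the library, so its values lay within the range of genes taken as silent. Beside these values, the chondrocyte markers were also lower and the muscle and endothelial markers higher in mutants, and the part of that in the Bmp7 values was not tested.

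**Figure D2:**
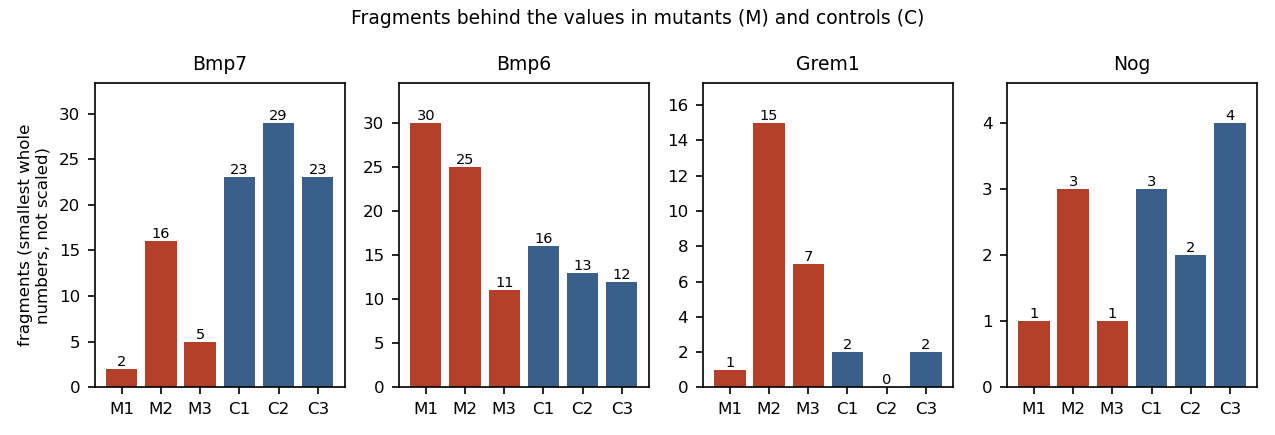
Fragments (y axis) behind the values of Bmp7, Bmp6, Grem1 and Nog in mutants (M1 to M3) and controls (C1 to C3), taken as the smallest whole numbers in proportion to the FPKM values, not scaled for depth. Mutant 2 holds 16 of the 23 mutant fragments of Bmp7 and 15 of the 23 of Grem1, and Nog has at most 4 in any library.

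Bmp4, the ligand that induces many early skeletal and dental structures, measured 25.0, 14.3 and 20.3 FPKM in mutants and 19.9, 18.0 and 14.9 FPKM in controls. The control values lay inside the range of the mutant values. Its log2 fold change was 0.14, with a 95% interval from -0.42 to 0.70 (limma adjusted p = 0.875). It rested on 163 mutant and 148 control fragments, whose scaled ratio was 1.13, and counting error alone gave that ratio an exact 95% interval of 0.895 to 1.42. Gdf10, a relative of Bmp3, measured 16.1, 13.6 and 21.2 FPKM in mutants and 13, 18.6 and 29.1 FPKM in controls. Its lowest and its highest value were both control libraries. Its log2 fold change was -0.19, with an interval from -0.88 to 0.49 (limma adjusted p = 0.856). Gdf10 rested on 181 mutant and 232 control fragments, at a scaled ratio of 0.797. The exact 95% interval for counting error only, from 0.653 to 0.972, leaves out a ratio of 1, whereas the interval of the fit holds 0.

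Bmp2, a ligand of chondrocyte maturation and fracture repair, measured 7.47, 6.21 and 4.32 FPKM in mutants and 6.01, 6.67 and 8.09 FPKM in controls. Bmp5, the ligand encoded at the short ear locus of the mouse, measured 5.71, 7.99 and 6.26 FPKM in mutants and 6.60, 5.74 and 4.06 FPKM in controls. For both, the groups overlapped, and the log2 fold changes were -0.20 for Bmp2 (95% interval from -0.80 to 0.41) and 0.25 for Bmp5 (95% interval from -0.35 to 0.86). Bmp6, a ligand of hypertrophic chondrocytes that is also made by endothelium as a regulator of iron balance, measured 9.49, 6.58 and 3.30 FPKM in mutants and 5.06, 4.13 and 2.85 FPKM in controls. Mutants 1 and 2 lay above all controls and mutant 3 among them. Its log2 fold change was 0.50, with a 95% interval from -0.33 to 1.34 (limma adjusted p = 0.645). Its fragments numbered 30, 25 and 11 in mutants and 16, 13 and 12 in controls, at a scaled ratio of 1.65 (exact 95% interval from 1.10 to 2.49, counting error only). That interval leaves out a ratio of 1, whereas the interval of the fit over libraries holds 0. The same held for Gdf10, in the other direction.

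**Figure D3:**
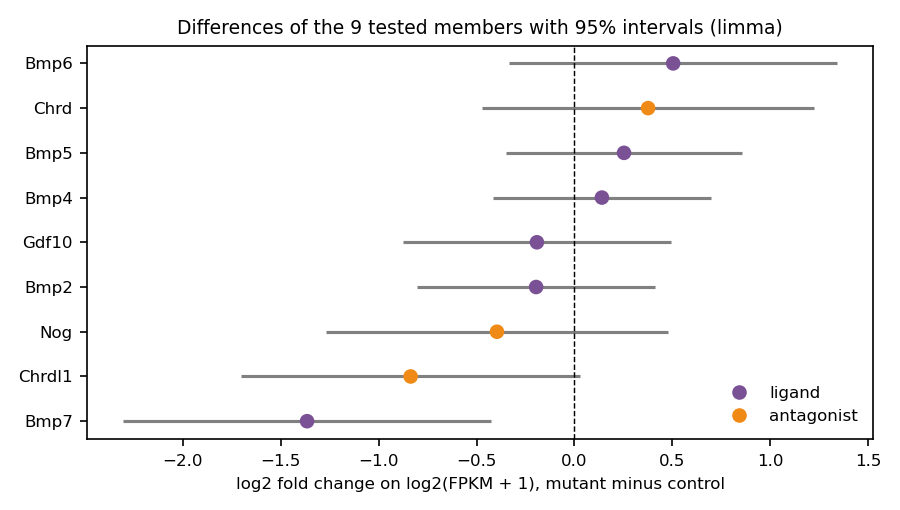
Log2 fold change on log2(FPKM + 1), mutant minus control (x axis), with 95% intervals from limma for the 9 tested members, ligands and antagonists in different colours. Only the interval of Bmp7, from -2.31 to -0.43, leaves out 0, and Bmp7 did not pass after adjustment over all genes.

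Among the antagonists, Grem1 (gremlin, a BMP antagonist of limb bud and stroma) measured 0.487, 6.07 and 3.23 FPKM in mutants, against 0.972, 0 and 0.730 FPKM in controls. Mutants 2 and 3 lay above all controls, and mutant 1 lay between them. These values corresponded to 1, 15 and 7 fragments in mutants and 2, 0 and 2 in controls, at a scaled ratio of 5.88 with an exact 95% interval from 2.01 to 23.4 that covers counting error only. With 15 of the 23 mutant fragments in mutant 2, that library sets much of the ratio. When all genes were tested without a filter, the log2 fold change was 1.24, with a 95% interval from -0.09 to 2.56 (limma adjusted p = 0.45). Several marker lists were also highest in mutant 2. So was the sum over all genes, at 738395 FPKM in mutant 2 and 581072 to 651353 FPKM in the other libraries. Libraries were not rescaled in the main fit. The osteoblast markers had sums of 327, 956 and 297 FPKM in mutants 1, 2 and 3 and 409, 237 and 319 FPKM in controls. The hypertrophic chondrocyte markers had sums of 3640, 10700 and 2370 FPKM in mutants and 3230, 4850 and 1340 FPKM in controls. The osteoclast and macrophage markers reached 1720 and 119 FPKM in mutant 2, above the highest controls at 1060 and 88.7 FPKM. Skeletal muscle, endothelial and adipocyte markers reached 25200, 249 and 682 FPKM in mutant 2, with the highest controls at 7500, 126 and 318 FPKM. The fibrous layer markers had 7240 FPKM in mutant 2 and 7250 FPKM in the highest control. Pericyte and Schwann cell markers were highest in mutant 3, at 91.5 and 17.8 FPKM, and chondrocyte markers in control 3, at 408 FPKM. The part of these lists, or of the larger sum over all genes, in the Grem1 values was not tested.

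Chrdl1, a chordin-like antagonist encoded on the X chromosome, measured 1.94, 3.84 and 3.19 FPKM in mutants, against 5.92, 10.02 and 3.46 FPKM in controls. Controls 1 and 2, which express Xist, were the highest, and control 3 lay between mutants 3 and 2. The log2 fold change was -0.84, with a 95% interval from -1.70 to 0.03 (limma adjusted p = 0.375). Without controls 1 and 2, which left control 3 as the only control, it was -0.19. With Xist as a covariate it was -0.25 (limma adjusted p = 0.912). The 95% interval there, from -1.34 to 0.84, holds the main value of -0.84. Both settings were added after the data were seen. Xist was high in no mutant and, among the controls, low in control 3 only. That 1 library alone set sex apart from genotype, so they could not be told apart reliably here. No whole numbers of fragments could be found for Chrdl1.

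Chrd (chordin), which holds BMPs until the protease Bmp1 and its relatives cleave it, measured 3.41, 4.15 and 8.39 FPKM in mutants and 2.27, 4.34 and 4.6 FPKM in controls. Mutant 3 lay above all other libraries and the rest overlapped, with a log2 fold change of 0.38 (95% interval from -0.47 to 1.22). Nog (noggin, an antagonist needed for joint formation) measured 0.407, 1.01 and 0.385 FPKM in mutants and 1.22, 0.817 and 1.22 FPKM in controls. That was 1, 3 and 1 fragments in mutants and 3, 2 and 4 in controls, and the ratio of 0.568 had an exact 95% interval from 0.149 to 1.89 for counting error, which holds a ratio of 1. Nog exceeded only 43.6% to 59.7% of the olfactory receptor genes.

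In order of mean level, mutants had Bmp4 (19.9 FPKM) and Gdf10 (17.0 FPKM), then Bmp5, Bmp6, Bmp2, Chrd, Grem1, Chrdl1, Bmp7 and Nog, the last at 0.602 FPKM. Controls had Gdf10 (20.2 FPKM) and Bmp4 (17.6 FPKM), then Bmp2, Chrdl1, Bmp5, Bmp7, Bmp6, Chrd, Nog and Grem1, the last at 0.567 FPKM. Neighbours in these orders overlapped in range, except for the step below Gdf10 in mutants, the step below Bmp4 in controls and the step from Chrd to Nog in controls. Summed over the 6 ligands, levels were 64.1, 51.3 and 56.4 FPKM in mutants and 55.1, 59.0 and 62.5 FPKM in controls. Summed over the 4 antagonists, they were 6.24, 15.1 and 15.2 FPKM in mutants and 10.4, 15.2 and 10 FPKM in controls. Both sums overlapped between the groups. In every library these 6 ligands outweighed these 4 antagonists, by 10.3, 3.4 and 3.71 times in mutants and 5.31, 3.89 and 6.24 in controls. Nbl1, an antagonist left out of these sums, measured 57.0, 82.4 and 138 FPKM in mutants and 42.5, 32.4 and 61.9 FPKM in controls. Other ligands and regulators were left out too, so the ratios hold for the chosen genes only. The ligand sums count Gdf10, the relative of Bmp3, at 13.6 to 21.2 FPKM in mutants and 13 to 29.1 FPKM in controls. The ratios are of RNA levels and do not measure BMP activity.

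The members lie on 7 chromosomes of mm10 (GENCODE release M21). Grem1 (chromosome 2, 113746164 to 113758646, minus strand), Bmp7 (chromosome 2, 172868012 to 172940321, minus strand) and Chrdl1 (chromosome X, 143285674 to 143394262, minus strand) have no exon that overlaps a gene on the other strand. Exons of Bmp4, Bmp5, Bmp6 and Chrd overlap exons of Gm15217, Gm26903, Txndc5 and Thpo on the opposite strand, and so do exons of Gdf5, Acvrl1 and Eng, described further on. The library kits named in the labels do not keep the strand, so fragments from those overlaps could not be assigned.

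Ihh acts on its target cells through the GLI factors, which bind the sequence GACCACCCA. RefSeq windows of 250 bases before the gene start (GRCm38.p6) were available for 6 of the 10 members. None of the 6 holds those 9 letters on either strand, and 0.225% of all 32851 windows do. The last 7 letters, CCACCCA, are found in the windows of Grem1 and Bmp5 and in 8.11% of all windows. These sequences are shown because they are the members' windows with that match, which stands in capitals (for Bmp5 on the opposite strand, as TGGGTGG). They lie at chr2:113758649-113758898 on the minus strand and at chr9:75775115-75775364 on the plus strand, and each is written 5′ to 3′ along its gene.
Grem1: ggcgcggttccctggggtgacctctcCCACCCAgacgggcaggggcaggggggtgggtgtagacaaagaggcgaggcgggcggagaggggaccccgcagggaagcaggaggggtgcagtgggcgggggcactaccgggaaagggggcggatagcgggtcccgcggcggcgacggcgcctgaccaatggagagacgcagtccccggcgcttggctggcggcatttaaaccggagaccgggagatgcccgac
Bmp5: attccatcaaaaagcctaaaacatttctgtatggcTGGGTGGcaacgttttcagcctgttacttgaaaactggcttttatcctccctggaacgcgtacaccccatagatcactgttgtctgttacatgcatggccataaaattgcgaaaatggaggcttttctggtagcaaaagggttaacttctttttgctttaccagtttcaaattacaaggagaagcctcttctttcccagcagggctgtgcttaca
A match of letters is a description and does not show binding. Grem1 and Bmp5 had 72.0% and 42.8% G and C in these windows, and neither gene passed the test between mutants and controls.

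Of the other 52 genes of the BMP pathway 42 were tested, and none passed in either direction (limma, adjusted p of 0.109 to 0.986). At an unadjusted p below 0.05 there were 5, which were Gdf5, Nbl1, Acvrl1, Eng and Id3, or 11.9% of the 42, beside 14.1% of all genes tested. Over the 42 genes the median log2 fold change was 0.11, beside 0 for all genes tested, with 28 positive and 14 negative. Groups did not overlap for 7 genes that lay higher and 3 that lay lower in mutants, where 9.77% and 9.4% of all genes tested did so.

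**Figure D4:**
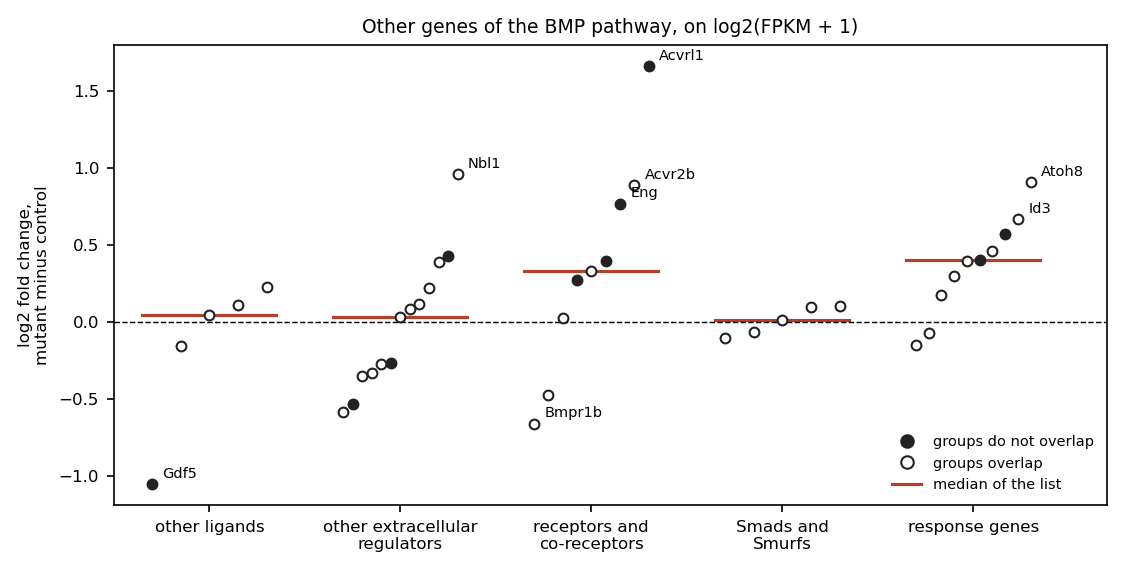
Log2 fold change on log2(FPKM + 1), mutant minus control (y axis), of the 42 tested pathway genes by list; filled points mark genes whose mutant and control values do not overlap, and lines the median of each list. Of the receptors, 4 of 9 lie higher in mutants without overlap, where 9.77% of all genes tested do so, and none passed the test. Acvrl1 is highest at 1.66, whereas the Smad and Smurf genes stay between -0.10 and 0.10.

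Of 5 other ligands tested, Gdf5, the growth factor of joint interzones and articular cartilage, measured 1.65, 0.275 and 0.94 FPKM in mutants, against 1.98, 4.65 and 2.48 FPKM in controls. The groups did not overlap, and the log2 fold change was -1.05 ± 0.42 (SE; limma adjusted p = 0.294). The fragments behind it were 5, 1 and 3 in mutants and 6, 14 and 10 in controls. Gdf5 exceeded only 41.5% to 80.9% of the olfactory receptor genes. Bmp3, a ligand that restrains osteogenic BMPs, averaged 9.94 ± 0.76 FPKM in mutants and 8.69 ± 3.0 FPKM in controls. Bmp8a averaged 7.5 ± 2.26 FPKM in mutants and 7.30 ± 4.12 FPKM in controls, and Gdf7, a ligand of tendon and nervous system, 1.30 ± 1.77 FPKM in mutants and 1.17 ± 0.58 FPKM in controls. All 3 overlapped between the groups.

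Of 13 other extracellular regulators tested, the antagonist Nbl1 measured 57.0, 82.4 and 138 FPKM in mutants, against 42.5, 32.4 and 61.9 FPKM in controls. Mutant 1 lay below control 3, and the log2 fold change was 0.96 ± 0.34 (SE; limma adjusted p = 0.238). Crim1, a membrane protein that binds BMPs, averaged 4.71 ± 0.28 FPKM in mutants and 3.26 ± 0.45 FPKM in controls, without overlap. Of the tolloid proteases, Tll2 averaged 0.939 ± 0.141 FPKM in mutants and 1.80 ± 0.17 FPKM in controls, and Tll1 1.49 ± 0.10 FPKM in mutants and 2.02 ± 0.42 FPKM in controls, both without overlap. Their relative Bmp1, which cleaves chordin, averaged 65.5 ± 23.6 FPKM in mutants and 79.9 ± 6.38 FPKM in controls. Fstl3, a follistatin relative, averaged 1.12 ± 0.43 FPKM in mutants and 2.23 ± 0.90 FPKM in controls. The follistatin-like gene Fstl1 exceeded all members in level, at 218 ± 35.9 FPKM in mutants and 218 ± 67.8 FPKM in controls.

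Of 9 receptor and co-receptor genes tested, Acvrl1, a type I receptor of endothelium, had the lowest p, with 7.46, 7.92 and 13.4 FPKM in mutants, against 1.45, 1.25 and 5.28 FPKM in controls. The groups did not overlap, and the log2 fold change was 1.66 ± 0.43 (SE; limma adjusted p = 0.109). Without control 3 it was 2.13 and passed (adjusted p = 0.0398). Without controls 1 and 2, which express Xist, it was 0.71 (adjusted p = 0.654), and with Xist as a covariate 0.74 (adjusted p = 0.621). Over all settings tried the adjusted p lay between 0.0398 and 0.885. Acvrl1 exceeded 60.3% to 95.5% of the olfactory receptor genes, depending on the library. The endothelial co-receptor Eng averaged 25.5 ± 2.39 FPKM in mutants and 15.4 ± 5.89 FPKM in controls (limma adjusted p = 0.275), again without overlap. Beside these genes, 3 of 8 endothelial markers rose and none fell, where 145 of all 18715 genes tested rose and 87 fell. With Xist as a covariate only 2 of all genes tested passed. The part of the endothelial markers in the Acvrl1 and Eng values was not tested. The type I receptor Bmpr1a, through which Bmp2 and Bmp4 act, averaged 23.6 ± 1.81 FPKM in mutants and 17.7 ± 1.92 FPKM in controls. The type II receptor Bmpr2 averaged 8.94 ± 0.47 FPKM in mutants and 7.25 ± 0.31 FPKM in controls. Both were without overlap, but their log2 fold changes of 0.40 and 0.27 did not pass (limma adjusted p = 0.402 and 0.674). Acvr2b, a type II receptor shared with activins, measured 4.20, 12.0 and 12.4 FPKM in mutants and 8.85, 2.81 and 2.80 FPKM in controls. Bmpr1b, the type I receptor of early cartilage, averaged 0.791 ± 0.702 FPKM in mutants and 1.79 ± 0.92 FPKM in controls.

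The 5 tested Smad and Smurf genes, which carry the signal and turn it over, had log2 fold changes from -0.10 to 0.10 (limma adjusted p of 0.89 to 0.986). Of 10 tested genes that respond to BMP signals, 8 had positive log2 fold changes and none passed, at a median of 0.40 beside 0 for all genes tested. Id3, an inhibitor of bHLH factors, measured 319, 603 and 438 FPKM in mutants, against 289, 334 and 218 FPKM in controls. Mutant 1 lay below control 2, and the log2 fold change was 0.67 ± 0.26 (SE; limma adjusted p = 0.293). Its relative Id1 measured 57.6, 61.4 and 106 FPKM in mutants, against 53.7, 42.5 and 49.7 FPKM in controls, without overlap (log2 fold change 0.57, limma adjusted p = 0.360). The inhibitory Smad7 averaged 3.41 ± 0.77 FPKM in mutants and 2.33 ± 0.46 FPKM in controls, without overlap. Atoh8, a bHLH factor, measured 0.974, 8.09 and 3.69 FPKM in mutants and 0.648, 0.979 and 2.92 FPKM in controls, with mutant 2 again the highest. Endothelium also expresses Id1, Id3, Smad7 and Atoh8, and the part of the endothelial markers in these values was not tested.

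Across the 6 libraries, the genes whose pattern lay closest to Bmp7 among 11403 genes with a mean of at least 5 FPKM were Cdca8, Ccp110 and Plekhg4. The root mean square difference between centred log2 values was 0.156, 0.180 and 0.187. Cdca8, a subunit of the chromosomal passenger complex of mitosis, measured 6.88, 16.3 and 10.7 FPKM in mutants, against 26.0, 35.1 and 27.3 FPKM in controls. It shares with Bmp7 the order of the 3 mutants and the highest value in control 2. Those closest to Chrdl1 were Prmt10, Stat2 and Tmem238, at differences of 0.14, 0.168 and 0.182. Prmt10, a protein arginine methyltransferase gene, measured 5.42, 7.88 and 6.41 FPKM in mutants and 11.6, 16.3 and 7.52 FPKM in controls. With 6 libraries and 11403 genes, some close matches are found for many patterns.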

How the data were processed

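Total RNA of dissected condylar cartilage was made into full-length cDNA with the SMART-Seq HT kit and into libraries with the Nextera kit, per the labels' protocols. The deposited values, 1 table per library, were taken as FPKM made by the authors. The headers name no unit, and FPKM was inferred from the values and from Cufflinks in the submitters' processing notes. Those notes name TopHat2 2.0.13, Bowtie2 2.2.3, SAMtools 0.1.19, Cufflinks 2.2.1 and the build mm10, without order or settings. The sources used here do not name the gene annotation.

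Genes that reached 1 FPKM in 3 or more libraries (18715) were tested on log2(FPKM + 1), which understates changes of low genes, with limma 3.58.1 in R 4.3.3. The fit was limma-trend with robust moderation on group alone, over all 6 libraries, and p-values were adjusted by Benjamini-Hochberg over all genes tested. The procedure was tested on simulated data in which every gene had the same spread and only genes of higher level were changed. That check does not cover low genes such as Bmp7 and Nog, or unequal sexes.

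The total number of fragments is unknown. Relative depth was read from the steps between low values and came, with control 1 set to 1, to 0.998, 1.20 and 1.05 for mutants 1, 2 and 3, and 0.993 and 1.33 for controls 2 and 3. With these, fragments per gene were sought as the smallest whole numbers within 0.02 of a fragment in every library, up to 300 in the highest, and were found for 9 of the 10 members, all but Chrdl1. Intervals of ratios are exact binomial intervals for these whole numbers and cover counting error only. They take the relative depth as known and each fragment as an independent count, which was not checked.

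The members and gene lists were chosen with earlier results of these data known. The rule for named genes took all members, pathway genes that passed, up to 4 genes per pathway list with the smallest p, and for the 2 tested members with the smallest p the 3 genes closest in pattern. Smad and Smurf genes are given as a range. Fstl1, Bmp1, Tll1, Bmpr1b and Bmpr2 were named after their values were seen. The olfactory receptor genes numbered 1102. Alternatives were other normalizations, filters, pseudocount and moderation, a replicate block and leaving out each library, with covariates and the omission of controls 1 and 2 added after the data were seen.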

Additional observations from a re-analysis of the deposited data

How the results depend on the processing

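None of the 9 tested members passed under any of the 16 alternatives that tested it, and Grem1, tested only without a filter, did not pass there. Over all genes, the count of 232 became 411 with quantile normalization, 133 without a filter and 440 with a filter at 5 FPKM. It was 18, 60 and 419 without mutant 1, mutant 2 and mutant 3, and it was 12 without control 1 and 10 without control 2, in a range from 10 to 419 over the libraries left out. It was 2 with Xist as a covariate, 2 with the mean of the muscle markers as a covariate and 5 without controls 1 and 2. With the replicate number as a block it was 2. The deviations of same-numbered libraries had correlations of 0.006, -0.016 and -0.009 across genes, so the numbers did not pair the samples. The count of receptor genes that rose was 0, and 0 to 1 when 1 library was left out. With the muscle covariate the log2 fold change changed sign for Bmp6 (-0.23), Gdf10 (0.051), Chrdl1 (0.18), Gdf5 (0.13), Gdf7 (1.45), Fstl3 (0.18), Atoh8 (-0.50) and Smad7 (-0.17). The 95% interval of each held both 0 and its main value, as from -1.816 to 1.917 for Gdf10 and from -3.898 to 2.905 for Atoh8. The muscle sums did not overlap, at 13600 to 25200 FPKM in mutants and 3130 to 7500 FPKM in controls. Muscle level and genotype thus could not be told apart reliably in that fit. When 1 library was left out the log2 fold change ranged from -0.036 to 0.35 for Bmp4, from -0.46 to 0.10 for Gdf10, from -0.048 to 0.42 for Bmp3, from -0.13 to 0.49 for Bmp8a and from -0.36 to 0.31 for Gdf7. The cause was not tested for any of these. Bmp7 and Nog kept a negative value in every setting that tested them, from -2.03 to -1.05 and from -1.19 to -0.30. Of the members with recovered fragments, Nog and Grem1 rested on the fewest, at most 4 and 15 in a library.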
